A study of Mus musculus with 6 samples.

Results

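Interferon-stimulated genes are genes that cells transcribe after they sense interferon, and 47 of them were followed in freshly isolated splenic T cells of WT mice and of mice that lack DUSP4. The genes were listed by name as known interferon targets, but the choice was made with earlier results of these data known. Of the 47 genes, 43 had a probe set that names them alone, out of 22180 genes measured. Ifi203, Gbp2 and Dtx3l share a probe set with another gene, and Ifi44 was not analysed here.

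The WT group was 3 spleen samples of B6 (C57Bl/6) mice and the other group 3 spleen samples of mice back-crossed to that strain with both Dusp4 alleles disrupted (DUSP4-/-), all from animals 6 to 8 weeks old. T cells were enriched with magnetic beads to a stated purity of 90 to 95%. The study gives this range for CD4+ cells after removal of CD8+ and other cells. The T cells were neither cultured nor treated and gave total RNA at once. The comparison thus asks how the resting T cell transcriptome differs without DUSP4. Each sample was read on 1 Affymetrix Mouse Gene 2.0 ST array, and every level below is a log2 value from robust multi-array averaging (RMA), a method that subtracts background, equalizes the arrays and summarizes the probes of a probe set. A difference is DUSP4-/- minus WT on that scale, so a negative value means less signal in DUSP4-/- T cells, and samples with the same replicate number are treated as a pair.

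Type I interferons bind the receptor IFNAR, whose kinases JAK1 and TYK2 phosphorylate STAT proteins, among them STAT2. A complex that includes STAT2 and IRF9 then binds the interferon-stimulated response element (ISRE) in the promoters of target genes, while interferon gamma acts mainly at the gamma-activated site (GAS). The products sense foreign nucleic acid, block viral replication and feed back on the pathway, and resting cells hold a basal level of many of them. DUSP4 is a dual-specificity phosphatase of MAP kinases, and dephosphorylation of STAT5 by it has also been described.

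The promoters of the listed genes were read for the core letters of the ISRE and of the GAS. RefSeq windows of the GRCm38.p6 assembly, each from 250 bases before to 50 bases after a transcription start, were at hand for 36 of the 47 genes. The ISRE core was searched as GAAANNGAAA on both strands, overlapping matches included, and was present in 19 of the 36 genes (52.8%), against 3.99% of the 27025 genes that have such a window. In 16 of the 19 genes a match lay wholly before the start. The GAS core, searched as TTCNNNGAA, was present in 6 of the 36 genes (16.7%), against 9.55% of all genes with a window, and in Bst2 a GAS match and an ISRE match overlapped. These matches describe letters, not bound sites.

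Windows of 5 genes are printed because their genes stand for different outcomes below, with the ISRE core matches in capitals and the sequence running 5′ to 3′ along the gene's strand. Oas3 and Isg15 are effectors whose groups did not overlap, Ifi205 is a sensor and Gbp3 a GTPase of the same kind, and Slfn8 is a gene with an ISRE core whose mean was above WT. The Oas3 window (chr5:120777610-120777909, minus strand) holds 1 match, 75 to 66 bases before the start. The Isg15 window (chr4:156200769-156201068, minus strand) holds 3 matches that overlap in a single run. The Ifi205 window (chr1:174031706-174032005, minus strand) holds a match on either side of the start. The Gbp3 window (chr3:142559794-142560093, plus strand) has 2 overlapping matches on the opposite strand, and the Slfn8 window (chr11:83020761-83021060, minus strand) has 1 match on the opposite strand. For Gbp3 and Slfn8 this is the first of 2 listed windows.
Oas3: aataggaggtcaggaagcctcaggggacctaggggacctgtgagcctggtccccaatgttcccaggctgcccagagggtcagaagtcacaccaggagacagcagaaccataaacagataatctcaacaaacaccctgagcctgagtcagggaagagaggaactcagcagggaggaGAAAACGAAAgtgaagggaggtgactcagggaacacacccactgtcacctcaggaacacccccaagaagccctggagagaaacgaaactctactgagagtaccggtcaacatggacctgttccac
Isg15: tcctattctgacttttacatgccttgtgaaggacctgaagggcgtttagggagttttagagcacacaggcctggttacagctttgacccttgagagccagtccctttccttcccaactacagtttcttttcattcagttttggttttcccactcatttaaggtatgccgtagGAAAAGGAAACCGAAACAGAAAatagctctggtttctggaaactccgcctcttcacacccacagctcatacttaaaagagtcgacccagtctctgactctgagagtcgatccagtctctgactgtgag
Ifi205: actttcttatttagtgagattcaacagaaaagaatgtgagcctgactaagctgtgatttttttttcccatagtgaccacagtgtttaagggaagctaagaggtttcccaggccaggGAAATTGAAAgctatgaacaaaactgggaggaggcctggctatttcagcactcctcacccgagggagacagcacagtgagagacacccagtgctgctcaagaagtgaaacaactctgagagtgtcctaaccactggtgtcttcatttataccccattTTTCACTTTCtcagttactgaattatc
Gbp3: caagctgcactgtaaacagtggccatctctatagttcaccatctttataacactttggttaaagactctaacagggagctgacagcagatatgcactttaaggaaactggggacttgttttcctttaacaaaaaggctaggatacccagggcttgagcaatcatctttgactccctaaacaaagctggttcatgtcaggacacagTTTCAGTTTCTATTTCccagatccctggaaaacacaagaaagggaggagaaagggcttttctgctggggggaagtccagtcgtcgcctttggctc
Slfn8: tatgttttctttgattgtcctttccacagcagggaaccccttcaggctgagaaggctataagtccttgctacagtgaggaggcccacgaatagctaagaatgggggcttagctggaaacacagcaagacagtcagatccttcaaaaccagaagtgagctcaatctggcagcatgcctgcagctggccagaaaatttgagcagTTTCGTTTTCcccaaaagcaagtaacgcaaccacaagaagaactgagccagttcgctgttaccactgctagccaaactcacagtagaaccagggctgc

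**Figure D1:**
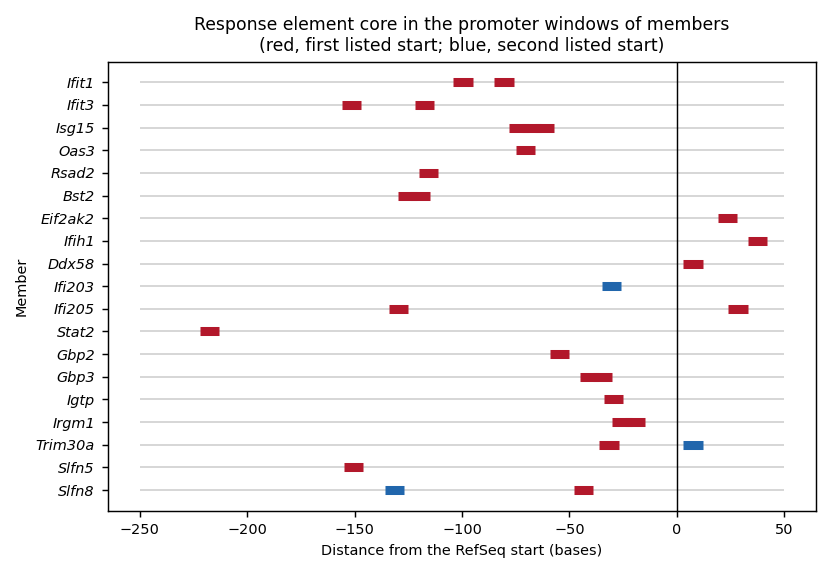
Positions of ISRE core matches, in bases from the RefSeq transcription start (horizontal axis), in the windows of the 19 genes that hold one (vertical axis), with red bars for the first listed start and blue bars for the second. In 16 of the 19 genes a match lies before the start.

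Members with and without the core overlapped in their difference. The 17 measured members with an ISRE core had a median difference of -0.21 (range -0.61 to 0.17), and the 15 without one had a median of -0.13 (range -0.77 to 0.13). Parp12, Mx2 and Xaf1, which are among the members furthest below WT, are not among the genes with a match.

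The arrays were similar in scale, with medians of 4.99 to 5.07 over all probe sets. Dusp4 read 6.33, 7.61 and 8.13 in WT replicates 1 to 3 and 5.10, 6.18 and 6.78 in the DUSP4-/- replicates, so that it was below WT by 1.23, 1.44 and 1.35 within the pairs while the groups overlapped. Where its probes lie relative to the disrupted part of the gene is not known here. The labels name T cells, and 14 measured T cell markers read 9.04 to 11.78 on every array, with a median difference of -0.0034. Among them Cd4 read 10.82 to 11.10 and Cd8a 10.32 to 10.79, so Cd8a as well as Cd4 transcripts were present. Xist, the RNA of the inactive X chromosome, read 10.09 and 10.12 in replicate 1 of WT and DUSP4-/- and 3.58 to 3.87 in the other 4 arrays, so the replicate number goes with the sex that Xist reads out, which the labels do not give.

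In DUSP4-/- T cells, 37 of the 43 members had a mean below WT, against 44.1% of all genes, and no single member passed an adjusted p of 0.05 in limma. Apart from the dim gene Ifi204, the members furthest below WT were the effectors Parp12, Xaf1, Mx1 and Oas2 and the sensor Ifi205. The median difference of the members was -0.22, where the median over all genes was 0.019. Within the pairs the median of the members was -0.19, -0.090 and -0.26, with 35, 33 and 37 of the 43 members below WT. Of all 22180 genes, 10860, 10463 and 9476 were below WT in the 3 pairs. Of the 11425 genes brighter than the median probe set, 6599, 5222 and 4681 were below WT, with pair medians of -0.035, 0.014 and 0.037. The median over the members was -0.078 without WT replicate 1 and -0.11 without DUSP4-/- replicate 3.

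The limma fit called 0% of all genes at an adjusted p of 0.05, members included, and the lowest adjusted p of a member was 1.00. At an unadjusted p under 0.05 it gave 10 members below WT and 0 above, where 0.911% of all genes were below and 1.79% above. After the replicate number was added to the model as a block, this rule gave 16 members below and 0 above. Of all genes 2.49% were then below and 3.7% above, and the lowest adjusted p of a member was 0.762 in limma. Dusp4 itself, lower in every pair, had an adjusted p of 0.182 in limma with the block. It did not pass an adjusted p of 0.05 in limma without the block either. The 10 members were Isg15, Mx1, Mx2, Oas2, Oas3, Oasl2, Parp12, Xaf1, Ifi204 and Ifi205. The count of 10 was 2 without the replicate 3 pair, 6 without the replicate 2 pair and 6 without WT replicate 3 alone. Fewer cells of a type and less RNA per cell cannot be told apart in such bulk samples.

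All 3 DUSP4-/- arrays were below all 3 WT arrays for 11 members, against 2.43% of all genes, and above them for 0 members, against 5.02% of all genes. These 11 were Isg15, Mx1, Oas2, Oas3, Oasl2, Parp12, Xaf1, Ifih1, Ifi205, Gbp3 and Rtp4. For any gene without overlap an exact two-sided permutation test must give p = 0.1, the lowest that 3 arrays against 3 allow. It therefore adds nothing to the count. With fewer arrays to overlap, the count of 11 was 19 without DUSP4-/- replicate 1 and 20 without the replicate 1 pair. DUSP4-/- was below WT in all 3 pairs for 27 members, against 11.1% of all genes, and above WT in all 3 pairs for 2 members, Ifit2 and Slfn8, against 16.6% of all genes. Of the 43 members, 40 were brighter than the median probe set, so the same shares were taken over bright genes alone. Among bright genes 2.09% had all DUSP4-/- arrays below all WT arrays and 13.1% were below WT in all 3 pairs. At an unadjusted p under 0.05 in limma 0.525% were below WT. The member counts above still include Isg15, Mx1 and Ifi204, whose means were below that of the median probe set. Isg15 and Mx1 are among the 11 and the 27, and Isg15, Mx1 and Ifi204 are among the members at an unadjusted p under 0.05 in limma.

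**Figure D2:**
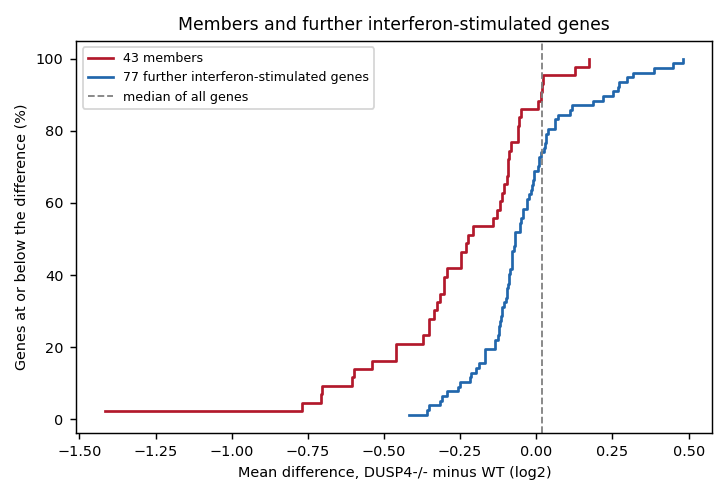
Cumulative percentage (vertical axis) of the 43 members and of 77 further interferon-stimulated genes by their mean difference, DUSP4-/- minus WT in log2 units (horizontal axis), with a dashed line at the median of all genes. The members lie to the left, with a median of -0.22 against -0.07 for the further genes and 0.019 for all genes. The members were chosen with earlier results of these data known, and the part of that choice in the contrast was not tested.

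The 17 measured antiviral effectors had a median difference of -0.34, and 16 of them were below WT on average. Their median was -0.33, -0.19 and -0.37 in the 3 pairs, 14 were below WT in every pair and 7 had no overlap between the groups. Parp12, an ADP-ribosyltransferase that restricts viral translation and replication, was the effector furthest below WT. It read 6.97, 6.64 and 6.61 in WT and 6.17, 6.20 and 5.54 in DUSP4-/- T cells. The lowest array was DUSP4-/- replicate 3, and every DUSP4-/- array was below every WT array. Its fold of 0.586 had a 95% confidence interval of 0.423 to 0.812 in limma (difference -0.77, standard error 0.20), and 0.460 to 0.748 with the replicate block.

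Xaf1 encodes a pro-apoptotic protein that counters the apoptosis inhibitor XIAP. Its levels were 7.23, 7.98 and 7.87 in WT and 7.21, 7.04 and 6.71 in DUSP4-/- T cells. The replicate 1 pair was nearly level (-0.02), and the replicate 2 and 3 pairs differed by -0.94 and -1.16. The mean difference was -0.71 (standard error 0.22), which is 0.613-fold, with an interval of 0.431 to 0.873 in limma.

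Mx1 and Mx2 encode dynamin-like GTPases that trap incoming viruses, and many laboratory mouse strains carry disrupted Mx genes. Mx1 read 5.56, 4.85 and 4.91 in WT and 4.42, 4.14 and 4.64 in DUSP4-/- T cells, with pair differences of -1.14, -0.71 and -0.26. Its groups did not overlap, and its mean over the arrays was below that of the median probe set. The fold was 0.614, with an interval of 0.432 to 0.871 in limma. Mx2, its neighbour on chromosome 16, was below WT by 0.30, 0.47 and 0.85 in the 3 pairs, and its groups overlapped.

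The oligoadenylate synthetases make short oligoadenylates from ATP when they meet double-stranded RNA, and these activate the nuclease RNase L. Oas2 read 7.52, 7.34 and 7.62 in WT and 7.17, 6.94 and 6.58 in DUSP4-/- T cells, a difference of -0.60 (standard error 0.17). The fold was 0.660, with an interval of 0.500 to 0.870 in limma. No DUSP4-/- array reached the lowest WT array, and replicate 3 had the widest pair (-1.04). Oas3 and Oasl2, which like Oas2 map to chromosome 5, also had groups that did not overlap. Oas3 read 6.86, 6.65 and 6.82 in WT and 6.46, 6.48 and 6.01 in DUSP4-/- T cells, a difference of -0.46. Oasl2 read 6.80, 6.57 and 6.70 in WT and 6.31, 6.30 and 6.45 in DUSP4-/- T cells, a difference of -0.34. Oasl1, known in mice as an inhibitor of Irf7 translation, had a difference of -0.29.

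**Figure D3:**
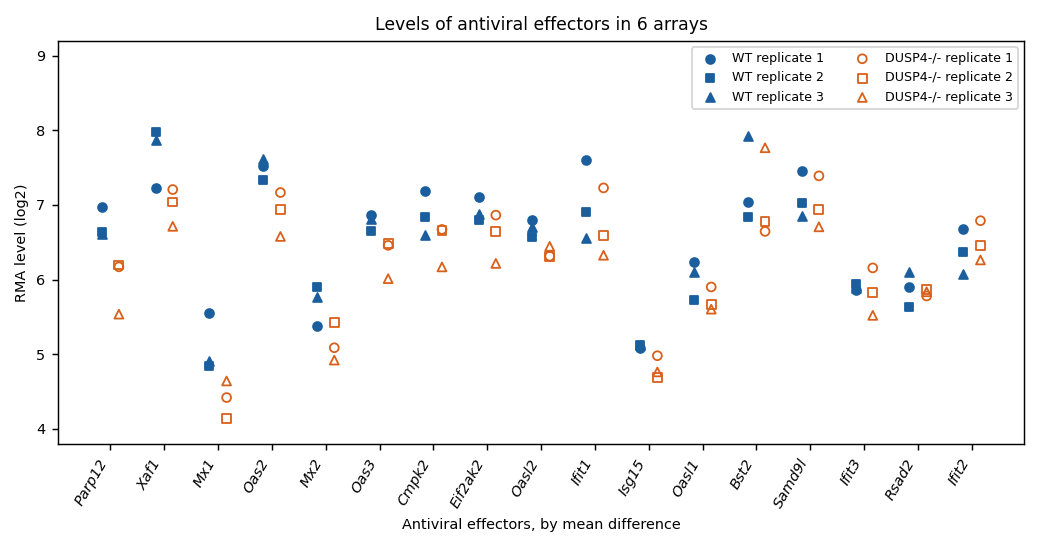
RMA levels (log2, vertical axis) of the 17 measured antiviral effectors (horizontal axis), each point 1 array, with filled blue symbols for WT, open orange symbols for DUSP4-/- and the shape giving the replicate number. Parp12, Xaf1, Mx1 and Oas2 have no overlap between the groups, with differences of -0.77, -0.71, -0.70 and -0.60.

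The rest of the effectors spread from Cmpk2 to Ifit2. Isg15, a ubiquitin-like modifier, read 5.09, 5.13 and 5.13 in WT and 4.98, 4.69 and 4.76 in DUSP4-/- T cells, a difference of -0.30 with no overlap. Cmpk2, a mitochondrial nucleotide kinase, and Eif2ak2, the RNA-activated kinase PKR, were below WT in all 3 pairs with mean differences of -0.37 and -0.35 and overlapping groups. Rsad2 (viperin), next to Cmpk2 on chromosome 12, had a difference of -0.05 and was above WT in the replicate 2 pair by 0.24. Bst2 (tetherin), which holds budding virus at the cell surface, was at -0.21, and Samd9l was at -0.10.

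The Ifit genes, whose products bind viral RNA, lie side by side on chromosome 19 and did not share a sign. Ifit1 was below WT in each pair, by 0.37, 0.31 and 0.23, although its groups overlapped because replicate 1 was high in both genotypes (7.60 in WT and 7.23 in DUSP4-/-). Its standard error was 0.31 without the block and 0.09 with it. Ifit2 was the effector above WT in every pair, by 0.11, 0.09 and 0.19. Ifit3 was above WT by 0.30 in the replicate 1 pair and below it by 0.11 and 0.36 in the others, and Ifit3 has a close paralogue that its probes may also read.

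The 6 measured nucleic acid sensors were all below WT on average, with a median of -0.29 (-0.18 without DUSP4-/- replicate 3) and pair medians of -0.12, -0.23 and -0.45. Ifi205 belongs to the PYHIN family of interferon-inducible proteins, some of which bind DNA, on chromosome 1. It read 7.35, 7.15 and 7.49 in WT and 7.01, 6.59 and 6.58 in DUSP4-/- T cells. All DUSP4-/- arrays were below all WT arrays, and the fold was 0.657 with an interval of 0.505 to 0.854 in limma (difference -0.61, standard error 0.16). PYHIN genes include near-identical copies, so the probe sets of Ifi205 and Ifi204 may read more than their own transcript.

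Ifi204, a DNA sensor of the same family, had the numerically largest difference (-1.42, standard error 0.48). Its level lay at percentile 14.35 of all probe sets. It read 2.70, 4.83 and 4.13 in WT and 2.86, 2.16 and 2.39 in DUSP4-/- T cells. The replicate 1 pair had no such gap (0.16), and the replicate 2 and 3 pairs differed by -2.67 and -1.74. The difference was -0.79 without the replicate 2 pair and -2.21 without the replicate 1 pair.

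Of the cytosolic RNA sensors, Ifih1 (MDA5) had groups that did not overlap, at 7.89, 8.09 and 8.04 in WT and 7.77, 7.88 and 7.39 in DUSP4-/- T cells, a difference of -0.33. Dhx58 (LGP2), a regulator of the other RNA helicases, was below WT by 0.24, 0.25 and 0.25 in the pairs, and the SD of these differences was 0.0059 against 0.19 between the WT arrays. Ddx58 (RIG-I) was at -0.06. Zbp1, a sensor of left-handed nucleic acid that can start necroptosis, was at -0.08.

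Among the transcription factors of the pathway, Irf7 was the furthest below WT. Irf7, which amplifies type I interferon production, read 8.38, 7.84 and 8.25 in WT and 8.20, 7.63 and 7.58 in DUSP4-/- T cells, with pair differences of -0.17, -0.22 and -0.67. The groups overlapped, since DUSP4-/- replicate 1 was above WT replicate 2. Irf9, the DNA-binding subunit that joins the STAT proteins, read 8.98, 8.62 and 8.69 in WT and 8.81, 8.55 and 8.60 in DUSP4-/- T cells, a difference of -0.11. Stat2 read 7.70, 7.20 and 7.30 in WT and 7.47, 7.24 and 7.22 in DUSP4-/- T cells, which is 0.938-fold, with an interval of 0.722 to 1.22. Their median was -0.11, and it was 0.0022 without WT replicate 1, -0.057 without DUSP4-/- replicate 2, and -0.19 without DUSP4-/- replicate 1 or WT replicate 2.

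The interferon-induced GTPases act on the vacuoles of intracellular pathogens. Gbp3 read 6.27, 6.05 and 6.34 in WT and 6.03, 5.96 and 5.92 in DUSP4-/- T cells, a difference of -0.25 with every DUSP4-/- array below every WT array. Irgm1, which regulates other GTPases of its family, read 6.77, 6.59 and 6.67 in WT and 6.39, 6.47 and 6.81 in DUSP4-/- T cells. For Irgm1 the replicate 3 pair went the other way (0.14), and the mean difference was -0.12. Igtp was at -0.09, and the shared probe set of Gbp2 and Gbp2b at -0.11. The median of the measured GTPases was -0.12, and it was -0.041 without the replicate 1 pair, -0.078 without DUSP4-/- replicate 2, -0.074 without WT replicate 1, -0.25 without DUSP4-/- replicate 1, -0.22 without DUSP4-/- replicate 3 and -0.19 without WT replicate 3.

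Enzymes of ubiquitin, ISG15 and ADP-ribose chemistry were below WT for 5 of 5 measured genes. Their median was -0.13, and it was -0.20, -0.041 and -0.17 in the pairs. Usp18 removes ISG15 from proteins and damps signalling at the type I receptor. It read 8.03, 7.07 and 6.88 in WT and 7.49, 6.62 and 6.50 in DUSP4-/- T cells. Replicate 1 was high in both genotypes, so the groups overlapped, while each DUSP4-/- array was below its partner by 0.54, 0.46 and 0.38. The standard error of the mean difference of -0.46 was 0.35 in the fit on genotype alone. The replicate block lowered it to 0.09, with a fold interval of 0.618 to 0.856 and an adjusted p of 0.762 in limma.

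Trim30a, a mouse TRIM protein that restrains inflammatory signalling, read 7.57, 6.57 and 6.80 in WT and 7.18, 6.58 and 6.49 in DUSP4-/- T cells, and its replicate 2 pair was level (0.01). Herc6, the main ISG15 ligase of mice, was below WT in all 3 pairs with a mean of -0.13. Parp9 was at -0.11 and Parp14 at -0.09, each below WT in all 3 pairs. The probe set that Parp9 shares with its partner Dtx3l was below WT by 0.15, 0.11 and 0.14. The median of these enzymes was -0.013 without WT replicate 1, -0.016 without DUSP4-/- replicate 3, -0.22 without DUSP4-/- replicate 1 and -0.25 without WT replicate 3.

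The remaining 9 members had no common direction, with 4 below WT, 5 above and a median of 0.0039 that moved between -0.077 (without WT replicate 2) and 0.062 (without WT replicate 1). Rtp4, a receptor-transporting protein that restricts some viruses, read 8.13, 8.08 and 8.08 in WT and 7.99, 7.97 and 7.39 in DUSP4-/- T cells. Its groups did not overlap, and DUSP4-/- replicate 3 made most of the difference of -0.31. Lgals3bp, a secreted glycoprotein that binds galectins, read 9.70, 8.91 and 9.28 in WT and 9.46, 8.93 and 8.83 in DUSP4-/- T cells, a difference of -0.22 with overlapping groups and a level replicate 2 pair. Its dimmer probe set had a difference of -0.16.

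Psmb8, a catalytic subunit of the immunoproteasome, was at 0.01, Ifi35 at 0.02 and Tor3a at 0.02. Daxx, a histone chaperone, was at 0.0039, Trafd1 at -0.06 and Slfn5 at -0.14. Slfn8, a schlafen gene of the cluster on chromosome 11 that also holds Slfn5, read 7.38, 6.56 and 7.003 in WT and 7.39, 6.81 and 7.26 in DUSP4-/- T cells. It was the member furthest above WT (0.17), by 0.01, 0.25 and 0.25 in the pairs, and its groups overlapped.

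**Figure D4:**
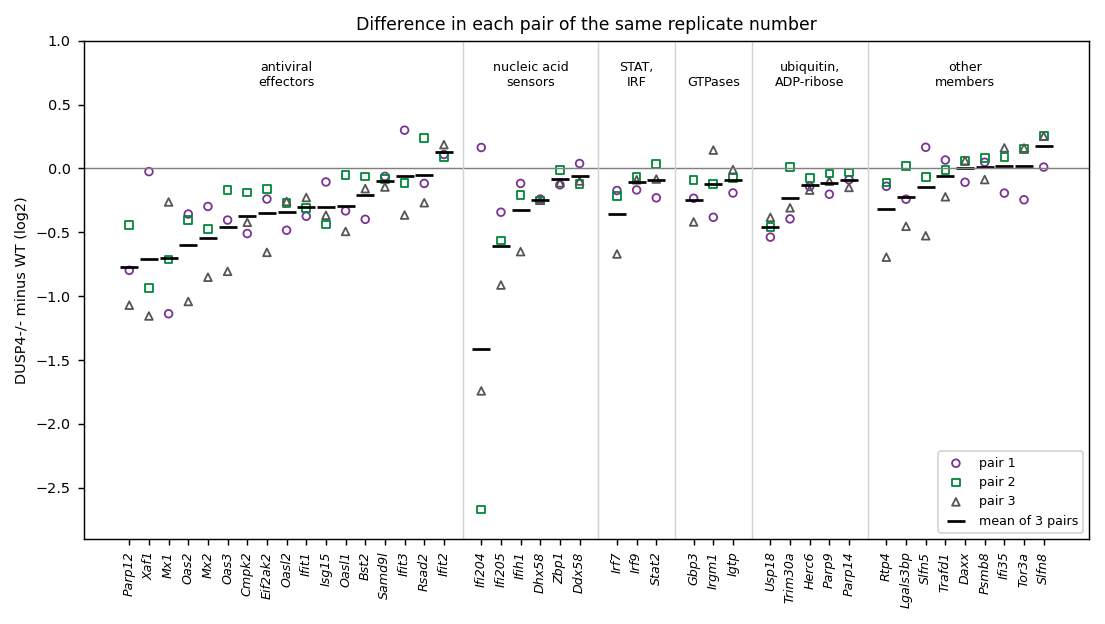
Difference within each of the 3 pairs, DUSP4-/- minus WT in log2 units (vertical axis), for the 43 members ordered by role and mean (horizontal axis), with a bar at the mean of the pairs. Points of the effectors and sensors lie mostly below 0, and those of the remaining members lie on both sides.

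The members also differed between replicates of the same genotype. Replicate 1 was the highest of its genotype in both WT and DUSP4-/- for 24 of the 43 members, against 21.9% of all genes and 33.4% of bright genes. The level of replicate 1 over the mean of replicates 2 and 3 had a median of 0.28 in WT and 0.26 in DUSP4-/- T cells, beside a median difference of -0.22 between the genotypes. For Usp18 it was 1.05 in WT and 0.94 in DUSP4-/-, for Trim30a 0.89 and 0.64, and for Ifit1 0.87 and 0.77. The median level of the members was 7.38, 6.91 and 6.88 in WT and 7.21, 6.77 and 6.66 in DUSP4-/- T cells. Each DUSP4-/- array was below its partner, but DUSP4-/- replicate 1 was above WT replicates 2 and 3.

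With the genotype means removed, a member correlated over the 6 arrays with the mean of the other members at a median r of 0.760. This is a description, since the arrays share normalization and the pairs differ in Xist. The correlation was above 0 for 36 of the 43 members and above 0.9 for 10, among them Psmb8, Samd9l, Usp18 and Ifit1. Psmb8 thus followed the other members between replicates while its mean difference between genotypes was 0.01. Trafd1 (-0.65) and Bst2 (-0.61) were the lowest.

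Genes upstream of the members were read from lists that were also chosen with earlier results of these data known. Of 19 measured interferon genes 8 were below WT and 11 above, with differences of -0.22 to 0.39, and 7 of the 19 were brighter than the median probe set. Ifng, interferon gamma, read 5.95, 6.53 and 6.02 in WT and 5.81, 6.11 and 5.92 in DUSP4-/- T cells. Ifnb1 read 2.99 to 3.32 over the 6 arrays, below the median probe set on each. Ifna4, whose family members are near-identical in sequence, was the interferon furthest above WT (0.39), by 0.34, 0.37 and 0.45 in the pairs.

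The receptor chains and their kinases differed little, with 4 of 9 below WT and differences of -0.09 to 0.07. Ifnar1 was at -0.07 and Ifnar2 at -0.0040. The 10 measured STAT and IRF genes outside the members had a median of -0.05, 9 negative regulators of the pathway had a median of -0.03, and 12 adaptors and kinases of nucleic acid sensing had a median of -0.07 with 9 of them below WT.

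A further 77 measured interferon-stimulated genes outside the members were closer to WT, with 53 below WT and a median of -0.07. Both lists were chosen with earlier results of these data known, and the part of that choice in the contrast was not tested. Their pair medians were -0.06, 0.00836 and -0.09. The groups did not overlap for 3 of these genes below WT and 1 above, against 2.43% and 5.02% of all genes. In all 3 pairs 16 were below WT and 7 above, against 11.1% and 16.6% of all genes. At an unadjusted p under 0.05 in limma 1 was below WT, against 0.911% of all genes. The median of this list was 0.043 without WT replicate 1, 0.00946 without DUSP4-/- replicate 3, -0.17 without DUSP4-/- replicate 1 and -0.12 without WT replicate 2. Ifi27, a mitochondrial protein gene, read 7.80, 7.72 and 7.80 in WT and 7.59, 7.41 and 7.38 in DUSP4-/- T cells with no overlap. Ifitm3, which blocks virus entry from endosomes, was at -0.31, with pair differences of 0.17, -0.03 and -1.07. The necroptosis effector Mlkl was at 0.32, with pair differences of 0.66, 0.28 and 0.02.

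Levels of other spleen cells were read beside the members, because such cells also express many of these genes. Of 30 myeloid markers 23 were below WT, with pair medians of 0.033, -0.07 and -0.46, and their summed linear level was 1970 to 2964 in WT and 1959 to 2204 in DUSP4-/- T cells. Of the 30 myeloid markers 22 were brighter than the median probe set, among them Csf1r, Adgre1, Cd68 and Lyz2, and Lyz1, Cd14, S100a8, S100a9 and Ly6g were among the 8 that were not. Of 10 plasma cell markers 9 were below WT, with pair medians of -0.43, -0.15 and -0.15 and summed levels of 2201 to 3125 in WT and 1703 to 2468 in DUSP4-/- T cells, and 9 of the 10 were brighter than the median probe set. Jchain, the joining chain of secreted antibodies, was below WT by 0.85, 0.73 and 0.61 in the pairs. Of 12 NK cell markers 7 were below WT, with pair medians of 0.10, -0.05 and -0.36 and summed levels of 1145 to 1400 in WT and 1026 to 1308 in DUSP4-/- T cells, and 7 of the 12 were brighter than the median probe set, Ncr1 and Klrb1c not among them. In the replicate 3 pair the members (-0.26), the myeloid markers and the NK cell markers were thus all below WT. In the replicate 1 pair the members (-0.19), the plasma cell markers and the plasmacytoid dendritic cell markers were below WT by their medians, and the myeloid and NK cell markers were not. The plasma cell markers, like the members, had a median below WT in each of the 3 pairs.

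Plasmacytoid dendritic cells, the main producers of type I interferon, had 9 measured markers with 5 below WT, pair medians of -0.30, 0.06 and -0.00842 and summed levels of 495 to 673 in WT and 518 to 596 in DUSP4-/- T cells. Siglech, their defining marker, was below the median probe set in level, and it was below WT by 0.30, 0.45 and 0.27 in the pairs with no overlap between the groups (difference -0.34). Bst2 marks these cells as well. Of the other markers on the list, Ly6d was at -0.27, Ccr9 at -0.07, Tcf4 at -0.02 and Klk1 at 0.07, and 4 of the 9 were above WT. Of 13 B cell markers 5 were below WT, with pair medians of 0.06, 0.05 and 0.00113 and summed levels of 765 to 1508 in WT and 785 to 1586 in DUSP4-/- T cells, and Fcer2a and Cr2 were below the median probe set. Replicate 1 was highest in both genotypes for 24 of the 43 members and 45 of the 77 further interferon-stimulated genes. It was also highest in both for 13 of the 13 B cell markers and 8 of the 14 T cell markers. The counts were 6 of 12 for NK cell, 4 of 10 for plasma cell, 3 of 9 for plasmacytoid dendritic cell and 2 of 30 for myeloid markers. The part of these markers, and of sex, in the members' differences was not tested.

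**Figure D5:**
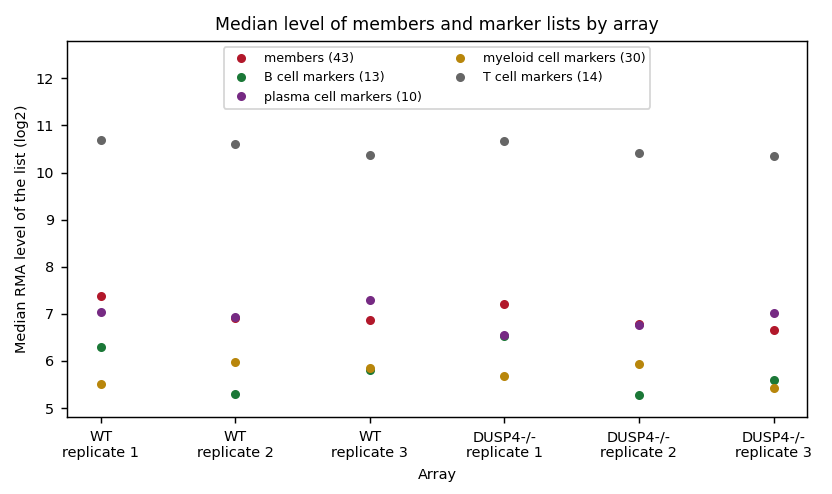
Median RMA level (log2, vertical axis) of the 43 members and of 4 lists of cell type markers on each of the 6 arrays (horizontal axis). The members are highest in replicate 1 of both genotypes (7.38 in WT and 7.21 in DUSP4-/-), as are the B cell and the T cell markers. Within every pair the members are lower in DUSP4-/- than in WT.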

How the data were processed

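Total RNA of MACS-enriched splenic T cells from 3 WT and 3 DUSP4-/- samples was hybridized to 6 arrays. The deposited values are log2 levels that the authors made with RMA in Affymetrix Expression Console, whose versions, like the genome build of the array annotation, are not given in the sources used here. Tests covered the 23521 of 41345 probe sets that are annotated to a single gene, and left out 1820 with several genes and 16004 without one. Each of 22180 genes was represented by its brightest probe set. Differences were fitted with limma 3.58.1 in R 4.3.3 (lmFit and eBayes, genotype only), with Benjamini-Hochberg adjustment of p over the tested probe sets, a threshold of 0.05, and 95% confidence intervals from the same fit. The procedure was tested on simulated data that held no differences between replicate numbers, unlike these arrays. The members and gene lists were chosen with earlier results of these data known. Every member with its own probe set was named, with array values for the 4 effectors and 2 genes of each other role furthest from 0, for every STAT and IRF factor and for genes whose groups did not overlap, the last chosen after their values were seen. Of further interferon-stimulated genes, the 4 bright ones furthest from 0 in each direction were named.

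Replicate numbers come from the sample titles, and the figure legend of the study speaks of pairs. Deviations from the genotype means correlated over genes at 0.584, 0.313 and 0.439 between samples with the same number and at -0.444 to 0.0954 between other samples of opposite genotype, so a replicate block was also fitted. Other alternatives were leaving out arrays or pairs, dropping dim probe sets, an intensity trend with robust settings, array weights, repeated quantile normalization, subtraction of array medians, the mean over probe sets, shared probe sets, one-way ANOVA and a threshold of 0.1. Promoter windows came from RefSeq. Whether samples came from 1 animal each is not stated, so p-values measure the spread between samples. Precision is limited by the number of arrays.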

Additional observations from a re-analysis of the deposited data

How the results depend on the processing

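No member passed an adjusted p of 0.05 in limma under any of the 19 alternatives. With the replicate block, 16 members had an unadjusted p under 0.05 and 6 in a one-way ANOVA, against 10 in limma without the block, and the block changed no other call. Leaving out arrays or pairs gave 2 to 12 members at an unadjusted p under 0.05, 12 to 20 members with no overlap and medians of -0.32 to -0.078 for the members, -0.46 to -0.28 for the effectors, -0.37 to -0.18 for the sensors, -0.19 to 0.0022 for the STAT and IRF factors, -0.25 to -0.041 for the GTPases, -0.25 to -0.013 for the ubiquitin, ISG15 and ADP-ribose enzymes, -0.077 to 0.062 for the remaining members and -0.17 to 0.043 for the further interferon-stimulated genes. Without 1 array the partner stays in, so differences between pairs enter. Array weights gave a median of -0.11 for the members, and subtraction of array medians gave -0.011 for the remaining members. The sign turned with array weights for Rsad2 (0.0892), Ifnb1 (0.0671) and Ifnar2 (0.00749) and with subtraction of array medians for Psmb8 (-0.00145) and Daxx (-0.011). It kept under every alternative for 22 of the 43 members. Leaving out arrays or pairs turned the sign in Ifit2 (-0.021 to 0.28), Ifit3 (-0.24 to 0.097), Rsad2 (-0.19 to 0.064), Bst2 (-0.56 to 0.12), Samd9l (-0.29 to 0.075), Ddx58 (-0.17 to 0.025), Zbp1 (-0.19 to 0.034), Stat2 (-0.19 to 0.057), Irf9 (-0.19 to 0.0022), Igtp (-0.25 to 0.12), Irgm1 (-0.25 to 0.012), Herc6 (-0.25 to 0.016), Trim30a (-0.44 to 0.064), Parp9 (-0.22 to 0.0097), Ifi35 (-0.051 to 0.13), Psmb8 (-0.18 to 0.19), Slfn5 (-0.46 to 0.21), Slfn8 (-0.038 to 0.37), Trafd1 (-0.16 to 0.070), Daxx (-0.047 to 0.062), Tor3a (-0.057 to 0.17), Ifi214 (-0.87 to 0.043), Ifit1bl1 (-1.09 to 0.19), Ifitm3 (-0.55 to 0.072), Ifi209 (-0.018 to 0.75), Ifi208 (-0.079 to 0.63), Ifnb1 (-0.094 to 0.086), Ifnar2 (-0.046 to 0.035). The cause was not tested.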

Other observations

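The PYHIN genes Ifi208, Ifi209, Ifi213 and Ifi214 on chromosome 1 were highest in replicate 1 of both genotypes and did not share a direction between the genotypes, while Ifi207 and Aim2 of the same family were not highest there. Ifi213 read 7.72, 6.52 and 6.28 in WT and 7.73, 7.27 and 6.97 in DUSP4-/- T cells, a difference of 0.48. Ifi214 read 7.52, 6.50 and 6.28 in WT and 7.26, 6.36 and 5.42 in DUSP4-/- T cells, a difference of -0.42. Ifi209 and Ifi208 had differences of 0.30 and 0.25. Ifit1bl1, an Ifit relative on chromosome 19, had the same excess in replicate 1, at 8.20 in WT and 8.28 in DUSP4-/- against 5.73 to 6.89 in the other 4 arrays, and a difference of -0.35. These genes have close paralogues that their probes may also read, and none passed an adjusted p of 0.05 in limma.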
